A study of Mus musculus with 2 samples.

Results

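Early B cells with transcripts of the surrogate light chain genes or of Vpreb3 were picked out of droplet libraries of mouse spleen, chosen by the measured levels of their own transcripts. A cell was counted as one when it held at least 5 unique molecular identifiers (UMIs, each standing for 1 captured mRNA molecule) of Vpreb1, Igll1 and Vpreb3 together, at least 1 UMI of Cd79a, at most 1 UMI of Siglech, and less than 1% of its UMIs from S100a8 and S100a9. Cells also needed at least 500 genes and less than 15% mitochondrial UMIs. The rule found 312 cells among the 22811 that passed the gene and mitochondrial limits, out of 24292 barcodes in all. Of these, 290 came from the sickle cell disease (SCD) library and 22 from the wild-type (WT) library. Vpreb3 is related to Vpreb1 but its product is not part of the surrogate light chain, and 69 of the 290 SCD members (23.8%) held no UMI of Vpreb1 or Igll1 and entered on Vpreb3 alone.

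The study asked how the splenic myeloid compartment differs in SCD mice, which are exposed to free heme. Spleen cells of 1 untreated mouse per genotype, aged 12 to 16 weeks, were enriched for dendritic cells by bead depletion of other cells, mainly B cells and erythroid cells, and were sequenced with the 10x Genomics 3′ chemistry. The WT animal was a non-sickling control littermate on a mixed background. It carried the human globin transgene Tg(HBA-HBBs)41Paz in the hemizygous state together with homozygous Hbatm1Paz and heterozygous Hbbtm1Tow, whereas in the SCD animal all 3 were homozygous. By their labels both animals are thus homozygous for the Hba null allele. With 1 animal and 1 library per genotype there was no replicate check, so no p-value is given. All intervals are 95% intervals that cover counting error only, exact binomial (Clopper-Pearson) for shares and exact Poisson for levels.

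A developing B cell first joins its heavy chain gene from separate segments, using the Rag1 and Rag2 recombinase and, at the joints, the template-free polymerase encoded by Dntt. A completed μ heavy chain is tested by pairing it with the surrogate light chain, made of the Vpreb and λ5 (Igll1) proteins, and with the signalling chains Cd79a and Cd79b; this assembly is the pre-B cell receptor. Its signal, together with that of interleukin-7, drives a burst of division, after which the recombinase genes are used again to build the κ or λ light chain. In adult mice these steps take place mainly in the bone marrow, and the spleen can host blood formation under anaemia.

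The surrogate light chain genes and the recombinase carry the stage of these cells. For that reason the promoters of Vpreb1, Igll1, Vpreb2, Vpreb3 and Rag1 are printed here. Each run spans 250 bases before to 50 bases after a gene start, 5′ to 3′ on the gene's strand, from RefSeq on GRCm38.p6. Capitals mark the E-box CAGGTG (or CACCTG on the other strand), the kind of site that E2A and related factors bind, and the RUNX motif TGTGGT (or ACCACA). The windows are chr16:16869206-16869505 (minus strand) for Vpreb1, chr16:16863936-16864235 (minus) for Igll1, chr16:17980315-17980614 (plus) for Vpreb2, chr10:75948050-75948349 (plus) for Vpreb3 and chr2:101649483-101649782 (minus) for Rag1.
Vpreb1: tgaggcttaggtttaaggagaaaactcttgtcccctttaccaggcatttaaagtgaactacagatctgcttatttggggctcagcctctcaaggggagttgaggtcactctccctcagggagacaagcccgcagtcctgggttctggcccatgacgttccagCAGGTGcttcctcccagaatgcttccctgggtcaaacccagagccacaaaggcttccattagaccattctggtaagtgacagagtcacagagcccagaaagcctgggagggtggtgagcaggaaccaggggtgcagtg
Igll1: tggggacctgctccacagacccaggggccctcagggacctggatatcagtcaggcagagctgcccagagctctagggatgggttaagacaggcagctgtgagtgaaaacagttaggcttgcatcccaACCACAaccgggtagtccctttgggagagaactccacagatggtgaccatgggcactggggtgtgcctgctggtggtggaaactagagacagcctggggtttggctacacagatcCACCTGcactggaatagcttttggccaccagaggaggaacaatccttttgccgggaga
Vpreb2: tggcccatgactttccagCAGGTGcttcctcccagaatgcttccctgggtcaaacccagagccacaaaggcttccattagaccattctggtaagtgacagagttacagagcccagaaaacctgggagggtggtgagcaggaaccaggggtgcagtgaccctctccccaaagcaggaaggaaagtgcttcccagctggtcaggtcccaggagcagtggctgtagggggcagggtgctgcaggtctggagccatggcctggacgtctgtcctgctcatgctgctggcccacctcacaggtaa
Vpreb3: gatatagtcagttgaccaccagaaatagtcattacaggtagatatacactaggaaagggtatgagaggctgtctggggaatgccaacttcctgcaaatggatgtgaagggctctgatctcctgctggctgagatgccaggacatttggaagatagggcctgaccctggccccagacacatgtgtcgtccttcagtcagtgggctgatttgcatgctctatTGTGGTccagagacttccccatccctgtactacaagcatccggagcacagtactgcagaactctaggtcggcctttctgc
Rag1: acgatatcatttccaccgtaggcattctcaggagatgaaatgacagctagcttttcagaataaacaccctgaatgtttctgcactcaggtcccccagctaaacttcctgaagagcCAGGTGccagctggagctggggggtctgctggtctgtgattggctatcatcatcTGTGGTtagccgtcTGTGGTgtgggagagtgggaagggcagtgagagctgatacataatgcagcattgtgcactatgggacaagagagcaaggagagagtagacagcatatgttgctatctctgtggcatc

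The E-box stood once in the Vpreb1, Igll1, Vpreb2 and Rag1 windows, first at 88, 8, 232 and 135 bases before the start, and was not in the Vpreb3 window. The RUNX motif stood once in the Igll1 and Vpreb3 windows and at 2 places in the Rag1 window. Of 32851 promoters of the same length, 20.2% held this E-box and 16.8% this RUNX motif, so both are common letters. The EBF palindrome, searched with any base at its 2 middle positions and present in 0.904% of promoters, was in none of the 5 windows. Windows of Rag2, Dntt, Cd79a and Ebf1 were searched too and are not printed. Those of Rag2 and Dntt held none of these motifs. The Cd79a window held 1 E-box, and an Ebf1 window held 1 RUNX motif while another Ebf1 window held none. Vpreb1 (ENSMUSG00000059305, chr16:16868403-16870843) and Igll1 (ENSMUSG00000075370, chr16:16860671-16863985) lie on the minus strand with 4417 bases between them. Rag1 (ENSMUSG00000061311, chr2:101638282-101649501) and Rag2 (ENSMUSG00000032864, chr2:101624718-101632529) are convergent neighbours 5752 bases apart. Of the 91-base windows of the Vpreb1 and Vpreb2 transcripts, 106 were identical, 8.47% of those of Vpreb1 and 15.8% of those of Vpreb2, so the split of reads between this pair is uncertain.

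The WT library held 97880318 UMIs over 10845 barcodes (median 4991 per barcode) and the SCD library 189688217 over 13447 (median 8596). The early B cells made up 2.31% of SCD cells past the limits (2.06 to 2.59%) and 0.214% of WT cells (0.134 to 0.324%), a ratio of 10.8 (6.98 to 17.5). Among cells with less than 1% of UMIs from S100a8 and S100a9, which leaves neutrophils out, the shares were 6.18% and 0.392%. The bead depletion acts on B cells, so these are shares of what the depletion left, and its efficiency in either suspension is not known. Early B cells of the SCD library held 1600 to 86397 UMIs with a median of 5841.5, and those of the WT library 2799 to 51733 with a median of 5481. Their median mitochondrial share was 3.97% in SCD and 4.79% in WT.

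Cells near the limit of the rule were few. In the SCD library 11641 cells held no UMI of Vpreb1, Igll1 or Vpreb3, 533 held 1, 38 held 2, 6 held 3 or 4, and 331 held 5 or more. The 7 SCD members with 5 to 9 such UMIs all held Ebf1 (median 13 UMIs), and the 2 cells just outside with 3 or 4 UMIs had a median of 13.5 Ebf1 UMIs. The limits on Siglech and on S100a8 and S100a9 left out 41 SCD cells and 1 WT cell with 5 or more such UMIs. All 41 of these SCD cells held Ebf1, with a median of 18 UMIs. No early B cell shared its barcode with the other library, although 88 barcodes occurred in both.

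Some members carried many transcripts of another lineage, or of the plasma cell gene Jchain, in the same barcode. There were 16 such mixed barcodes in the SCD library, with 21.1% of the SCD members' UMIs, and 2 in the WT library, with 29.3%; the limits that define them were chosen after seeing the data. One SCD barcode alone held 17401 of the 19658 Igkc UMIs, 1241 of the 1257 Jchain UMIs and 5508 of the 5566 Igha UMIs of all SCD members. In the WT library 1 barcode held 6543 of 6860 Igkc UMIs. Both mixed WT barcodes were called on Jchain alone, with 307 and 11 UMIs, and held no UMI of Ighm, Rag1 or Dntt. Mixed thus need not mean more than 1 cell. A doublet caller (Scrublet) marked 4 of the 290 SCD members (1.38%), all 4 of them mixed, and none of the 22 WT members. Over all cells past the limits it marked 3.03% in SCD and 4.06% in WT. The other mixed barcodes were left unmarked. Levels below are therefore given without the mixed barcodes where these decide them.

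The label was checked against its markers. Of these, only Ebf1 was not part of the rule, and all 290 SCD members held it, with a median of 28 and a highest value of 104 UMIs (ENSMUSG00000057098, chr11:44617317-45008091, plus strand). Ebf1 encodes the factor that commits progenitors to the B lineage. After each cell was thinned at random to 2000 UMIs, Ebf1 was detected in 98.3% of SCD members, against 0.623% of cells in a neutrophil gate (S100a8 and S100a9 at least 5% of UMIs) that serves as the background of free RNA, 1.20% of a plasmacytoid dendritic cell (pDC) gate (Siglech at least 5 UMIs) and 0 of 240 cells in a progenitor gate (Kit and Cd34). Pax5, which holds B cell identity, was detected in 57.3% of members and in 0, 0 and 0.156% of the pDC, progenitor and neutrophil gates. Cd79b, the partner of Cd79a, was detected in 83.3% of members and in 0.566% of neutrophils. Genes of mature B cells differed widely in level. Levels are given in CPM (counts scaled to a total of 1000000). Without the mixed barcodes 8 of the 15 genes of that list were under 10 CPM, among them Ms4a1 (CD20), found in 3 cells, and Fcer2a (CD23), with no UMI. Among those at 50 CPM or more were Cd37, a tetraspanin found widely on white blood cells, at 432 CPM, the MHC class II genes H2-Ab1 at 156 and H2-Aa at 63.0 CPM and the invariant chain Cd74 at 93.4 CPM. Cd37 was detected in 64.3% of thinned members and 31.4% of the neutrophil gate, and H2-Ab1 in 21.0% and 6.36%. Cd3e, a T cell gene, had no UMI in the members.

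**Figure D1:**
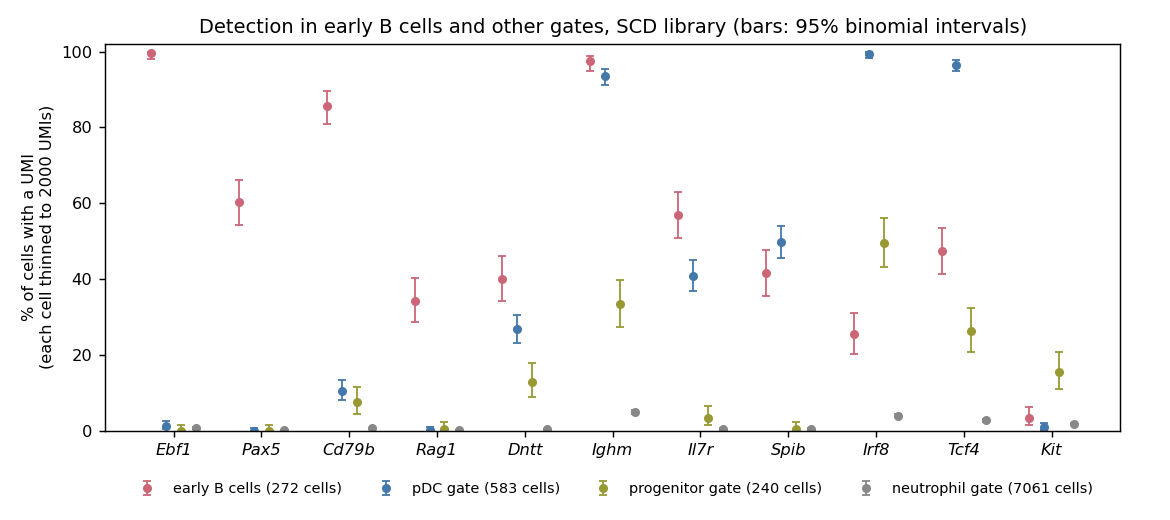
Share of cells with a UMI of each gene after thinning every cell to 2000 UMIs, in SCD early B cells without mixed barcodes (272 cells), a pDC gate (583), a progenitor gate (240) and a neutrophil gate (7061); bars are 95% binomial intervals. Ebf1, Pax5, Cd79b and Rag1 stand high in the early B cells alone of the 4, whereas Ighm and Spib are shared with the pDC gate, and Irf8 and Tcf4 stand higher in that gate.

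The pDC gate was compared because pDCs share several transcripts with early B cells. Ighm was detected in 96.9% of early B cells and 93.5% of the pDC gate, Il7r in 55.6% and 40.8%, and Dntt in 38.9% and 26.8%. Each of the 3 was thus detected more often in the early B cells and also in many pDCs, and Dntt stood at 489 against 192 CPM (log2 1.32), whereas Il7r (0.18) differed by less than 2-fold. Ighm lay near that limit, at 0.74, or 1.11 with cells weighted equally. Rag1 was detected in 33.3% against 0.172%. In CPM the members exceeded the pDC gate at least 2-fold for 419 of 4009 expressed genes (10.5%) and stood at least 2-fold lower for 593 (14.8%), with a median log2 ratio over all genes of 0.11. Log2 ratios here and below are of CPM with 5 CPM added to each side, and expressed means at least 50 CPM and 20 UMIs on a side. The highest were Ebf1 (2972 against 12.5 CPM, log2 7.41), Pax5 (6.18), Vpreb2 (6.05), Cplx2 (5.99), Lef1 (5.67) and Pou2af1 (5.48), the last a coactivator of immunoglobulin genes. Among the 10 lowest were Ccr9, a gut-homing receptor (1.03 against 652 CPM, log2 -6.77), Runx2 (-6.43), Cd7 (-6.33) and, for tetherin, Bst2 (-5.37). Jchain came out high (5.04) only through the mixed barcodes and stood at -0.15 without them.

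Against the pDC gate, 13 of 22 expressed B lineage factors were at least 2-fold higher in the early B cells and 5 lower, and the 3 genes of V(D)J cutting and end adding (Rag1, Rag2 and Dntt) were all higher. Of 6 expressed mature B cell genes none was higher and 5 were lower. These counts come from a gate contrast in which the Siglech limit took part, so they describe the cells and test nothing.

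The progenitor gate was chosen by Kit and Cd34 and by the absence of Cd79a. Of 3663 expressed genes 408 (11.1%) were at least 2-fold higher in the early B cells and 202 (5.51%) lower, with a median log2 ratio of 0.11. Of 23 B lineage factors 16 were higher and 3 lower, with Bach2, a repressor that keeps B cells from plasma cell fate, at 381 against 6.77 CPM (log2 5.03). The interleukin-7 receptor gene Il7r stood at 328 and 10.4 CPM (4.43). Of the progenitors 67.1% were dividing, against 41.0% of the early B cells. In the early B cells 8 of 9 expressed brakes on division were higher, among them Btg1 (344 against 64.4 CPM, 2.33) and Btg2 (202 against 25.7 CPM, 2.75). Flt3, a receptor of multipotent progenitors, was lower at 6.85 against 60.5 CPM (-2.47, and -3.28 without mixed barcodes), and so was the survival gene Bcl2 (-2.87).

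The early B cells held dividing and resting cells. The UMIs of 52 cycle genes (25 of DNA synthesis, 27 of G2 and mitosis) were summed per cell after thinning to 2000 UMIs. Cells with at least 10 were called dividing and cells with up to 4 non-dividing; these are ranges of a score, not cell types. In the SCD library 118 of 288 members were dividing, 41.0% (35.2 to 46.9%), 152 were non-dividing and 18 lay between; 2 members were too shallow. Only 14 cells lay within 8 to 12 UMIs, near the limit.

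The dividing range held 10 to 69 cycle UMIs of 2000 with a median of 31, and the non-dividing range 0 to 4 with a median of 2. Early B cells of the SCD library thus fell into cells with almost no cycle transcripts and cells spread over a broad range of them. Dividing cells were also larger libraries, with a median of 13151 UMIs and 3787 genes against 3813 UMIs and 1780.5 genes. More than 5000 genes, above the study's own upper limit, were held by 21 of the 118 dividing and 3 of the 152 non-dividing cells. Of the 118 dividing cells 104 held at least 3 UMIs of each of the DNA synthesis and mitosis lists, and in 50 the synthesis list was the larger. In the WT library 6 of 22 members were dividing (27.3%, 10.7 to 50.2%), 14 were non-dividing and 2 lay between, so the interval overlaps that of SCD. In the other SCD gates the dividing share was 67.1% of progenitors, 14.6% of pDCs and 9.83% of neutrophils.

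**Figure D2:**
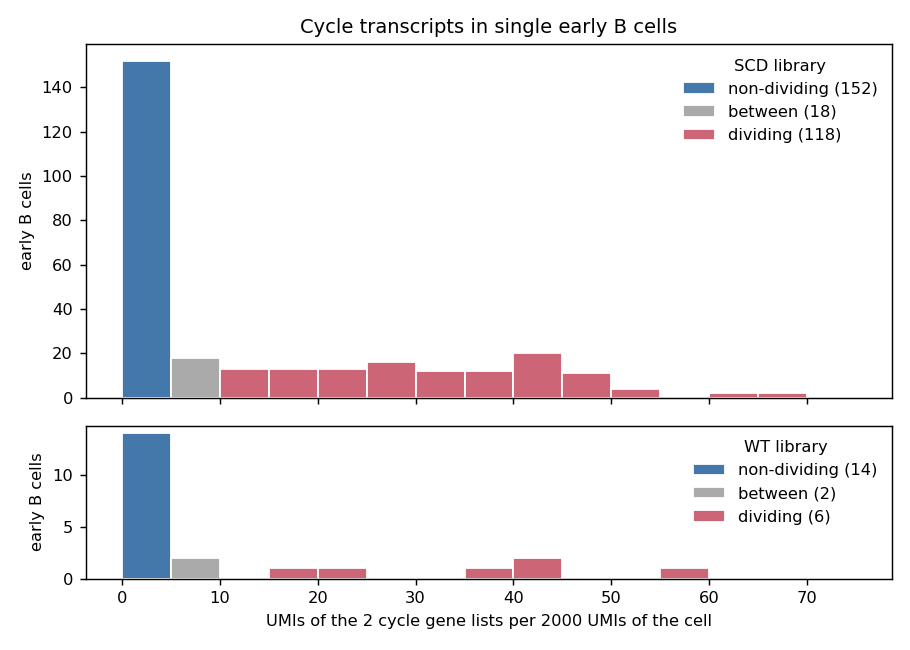
Number of early B cells (vertical axes, which differ between the panels) by the UMIs of the 52 cycle genes per 2000 UMIs of the cell, for the SCD library (top) and the WT library (bottom), coloured by range. In the SCD library 152 cells lie at 0 to 4 and 118 are spread from 10 to 69, with 18 between; in WT the same ranges hold 14, 6 and 2 cells.

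The 3 genes of cutting and end adding stood lower in the dividing range in CPM. Rag1 stood at 40.8 CPM in dividing and 483 CPM in non-dividing SCD cells, a log2 ratio of -3.42 (-3.93 to -3.22; intervals of ratios are exact for the counts and leave the pseudocount out). Rag1, which cuts at recombination signals, was found in 41 of 118 dividing cells and in 114 of 152 non-dividing cells without thinning, although the dividing cells were sequenced more deeply. Rag2, its obligate partner, stood at 34.8 and 126 CPM (log2 -1.72, -2.33 to -1.39), and Dntt at 322 and 963 CPM (-1.57, -1.74 to -1.43). All 3 were thus at least 2-fold lower in the dividing cells in CPM, and Rag2 was found about equally often, in 47 of 118 dividing and 58 of 152 non-dividing cells.

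The WT library showed the same order for Rag1 in far fewer cells. One of 6 dividing WT cells held Rag1 (6 UMIs), whereas 13 of 14 non-dividing WT cells did (0 to 12 UMIs, median 3). Rag2 was found in 3 of 6 dividing and 11 of 14 non-dividing WT cells. The ranges of both libraries overlap, since each holds cells with and without these transcripts on either side.

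Because dividing cells held more UMIs, a lower CPM need not mean fewer molecules per cell. Without mixed barcodes, a dividing cell held 14680 UMIs on average and a non-dividing cell 4160, a ratio of 3.53. Rag1 was lower per cell as well, with 0.630 against 2.27 UMIs, a ratio of 0.277. Rag2 was level at 0.593 and 0.605 UMIs per cell, and Dntt at 5.56 and 4.56. Of the 3, only Rag1 was thus less abundant per cell, while Rag2 and Dntt were at or near the same number of molecules in a larger total. UMIs captured per cell also depend on the efficiency of capture, which these counts do not separate from RNA content.

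Repair genes of the joining step were split. Xrcc6 (Ku70), which binds broken ends, stood at 133 and 462 CPM (log2 -1.76, -2.04 to -1.56) and was level per cell at 2.10 and 2.16 UMIs. Lig4, the ligase of end joining, stood at 46.2 and 106 CPM (-1.12, and -0.83 with median of ratios scaling) and at 0.731 and 0.497 UMIs per cell. H2afx, the histone variant that marks breaks and is also made in S phase, stood at 772 and 55.9 CPM (3.67, 3.34 to 4.28), or 13.2 against 0.245 UMIs per cell. Only 3 of the 11 genes of this list were expressed by the limits above.

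Over all 4028 expressed genes, 504 (12.5%) were at least 2-fold higher in dividing cells and 584 (14.5%) at least 2-fold lower, with a median log2 ratio of -0.15, and of these 480 and 536 passed also without mixed barcodes. Beyond the cycle lists the highest were the replication-dependent histone genes Hist1h2ap (4499 against 54.5 CPM, log2 6.24), Hist1h2ae (5.14), Hist1h1b (4.83) and Hist1h3c (4.75), the mitotic motor Kif15 (4.99), the PCNA-binding Pclaf (4.93, and 6.43 without mixed barcodes), the spindle gene Aspm (4.71; no UMI in the non-dividing cells), cyclin A2 (Ccna2, 4.51), the kinetochore gene Spc25 (4.46) and Pbk (4.45). These accompany DNA synthesis and mitosis, as the genes that defined the ranges do. The lowest were Bmf, a pro-apoptotic BH3 gene (2.98 against 101 CPM, log2 -3.73), Heyl (-3.52), Steap4 (-3.43), Rag1 (-3.42), Fcrl6 (-3.26), Cacna1e (-3.23), Mmrn1 (-3.11), Tmem91 (-3.04), Gm37403 (-3.02) and Kdm5b (-2.94, and -4.03 without mixed barcodes), the last a histone demethylase.

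Of 10 expressed brakes on division, 5 were at least 2-fold lower in dividing cells in CPM and 1 was higher, with a median of -1.01. Per cell and without mixed barcodes, 95.5% of 8295 genes with at least 20 UMIs were more abundant in dividing cells, with a median ratio of 3.07. Of 12 brakes 10 were, with a median ratio of 1.70, and Btg1 (0.922) and Btg2 (0.754) were less abundant. The anti-proliferative genes Btg1 (206 against 768 CPM, log2 -1.87) and Btg2 (98.9 against 472 CPM, -2.20) were lower in CPM, and the cyclin-dependent kinase inhibitor Cdkn1b (p27) stood at -1.29 in CPM and at 1.27 against 0.878 UMIs per cell. Cdkn2c (p18) was higher by both measures, at 116 against 44.7 CPM (1.28) and 1.94 against 0.197 UMIs per cell. Cyclin D3 (Ccnd3), the D cyclin that pre-B cell division needs, stood at 776 and 367 CPM (1.07) and at 13.2 against 1.60 UMIs per cell. Interleukin-7 receptor (Il7r) was 2.92 times as abundant per cell in dividing cells (5.42 against 1.86 UMIs) and nearly level in CPM (-0.39).

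Genes of B lineage identity and of the pre-B cell receptor gave different answers by the 2 measures. Of 22 expressed B lineage factors 8 were at least 2-fold lower in dividing cells and none higher (median -0.78), and of 14 genes of the pre-B cell receptor and its signalling 5 were lower and none higher (median -0.89). Per cell and without mixed barcodes, all 22 factors with at least 20 UMIs and all 16 genes of the receptor list, Cd79a of the rule among them, had ratios above 1, as most genes did. Their median ratios of 2.07 and 1.97 were below the 3.07 over all genes. The surrogate light chain genes were nearer to level, with per-cell ratios of 0.962 for Vpreb1, 0.800 for Vpreb2 and 1.23 for Igll1; Vpreb2, the one of them outside the rule, had a log2 ratio of CPM of -2.10. Ebf1 stood at 2118 and 5495 CPM (-1.37), but at 36.5 and 25.8 UMIs per cell, and Pax5 at 6.64 and 2.44 UMIs per cell. Ighm, the μ heavy chain, stood at 2255 and 3386 CPM and at 38.9 and 15.8 UMIs per cell. Ly6d, a surface marker of B cell specification, was among the few that were lower by either measure, with 75.1 and 428 CPM and 0.861 and 2.06 UMIs per cell.

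Medians below 0 in CPM were also seen in further lists. At least 2-fold lower in dividing cells were 3 of 8 interleukin-7 and cytokine genes (1 higher), 5 of 13 surface and homing genes, 1 of 4 survival genes and 5 of 7 immunoglobulin constant genes, and no gene was higher in the last 3 lists. Il2ra (CD25), a late pre-B cell marker, stood at 5.96 and 54.5 CPM (-2.44), Foxo1, a factor that sustains Rag transcription, at -1.42, and Bst1 (BP-3), a stromal and pro-B cell marker, at -1.94. Cd24a, the heat stable antigen, was higher at 0.69. The erythroid list went the other way, with 3 of 3 expressed genes above 0 and a median of 0.94 (0.27 without mixed barcodes), led by Hba-a1. The summed neutrophil list was lower in the dividing cells (3330 against 5849 CPM without mixed barcodes), although 3 of its 8 expressed genes were at least 2-fold higher with all barcodes and none without the mixed ones; its part in the other values was not tested. Both expressed genes of the plasma cell list differed by less than 2-fold, and among them Irf4 also belongs to the late pre-B list.

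**Figure D3:**
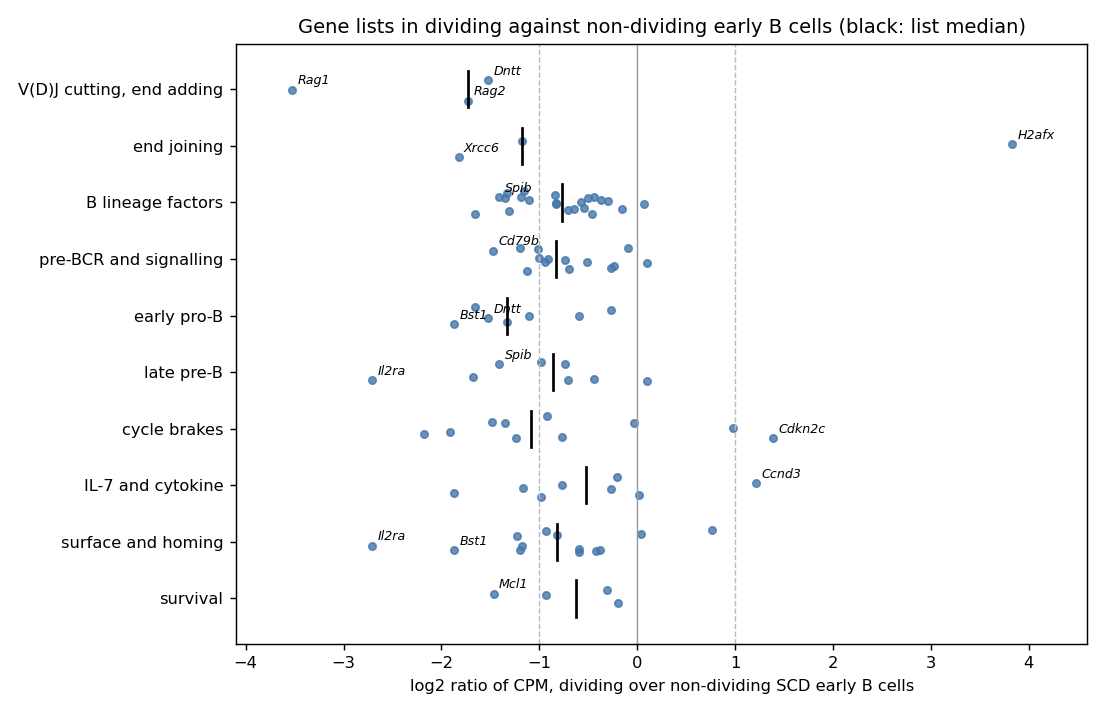
Log2 ratio of CPM, dividing over non-dividing SCD early B cells without mixed barcodes, for each expressed gene of 10 lists; each point is a gene, black bars are list medians and dashed lines mark 2-fold. Rag1 lies at -3.52 and H2afx at 3.83, and every list median lies below 0.

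Dntt (ENSMUSG00000025014, chr19:41029275-41059525, plus strand), the end-adding polymerase of the pro-B stage, was detected in 112 of 288 SCD members after thinning (38.9%, 33.2 to 44.8%), against 0.326% of neutrophils (median depth 6891.5 UMIs in the non-dividing ones). It was found in 28.0% of dividing (20.1 to 37.0%) and 46.7% of non-dividing members (38.6 to 55.0%). Without thinning it was found in 52 of 118 dividing (44.1%, 34.9 to 53.5%) and 83 of 152 non-dividing members (54.6%, 46.3 to 62.7%). The intervals thus overlap without thinning and not with it. In the WT library 7 of 22 members had Dntt after thinning. Of 3688 expressed genes, 189 (5.12%) were at least 2-fold higher in Dntt-detected cells and 98 (2.66%) lower, of which 151 and 64 also passed without mixed barcodes. The values that follow leave the mixed barcodes out.

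Genes of the early pro-B list were higher with Dntt, 4 of 7 expressed at least 2-fold and none lower (median 1.05). Rag1 stood at 325 CPM with Dntt and 107 without (log2 1.56), and Rag2 at 115 and 44.0 CPM (1.29). With the mixed barcodes, 29.5% of the Dntt-detected cells were dividing, against 48.3% of the others. Also with them, the log2 ratio of Rag1 within non-dividing cells was 0.91, under 2-fold, while that of Rag2 was 1.28. Bst1 and Kit also fell under 2-fold within non-dividing cells, and Bst1 did so with cells weighted equally. The early B cell factor Lef1 stood at 728 and 281 CPM (1.36), Erg, an ETS factor of progenitors, at 215 and 40.4 CPM (2.28), and Vpreb2 at 792 and 164 CPM (2.24). Adgrg1 (GPR56), a progenitor surface receptor, stood at 346 and 75.9 CPM (2.12).

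Genes of the late pre-B list went the other way, 6 of 7 expressed at least 2-fold lower and none higher (median -1.52). Ikzf3 (Aiolos), which restrains the surrogate light chain genes, stood at 2.25 CPM with Dntt and 126 without (-4.18). Ly6d stood at 54.1 and 294 CPM (-2.34), Spib, an ETS factor of the pre-B stage, at 83.3 and 249 CPM (-1.52), and Irf4, needed for light chain rearrangement, at 56.3 and 191 CPM (-1.68). Igkc, the κ constant gene (ENSMUSG00000076609, chr6:70726435-70726966), stood at 110 and 1401 CPM (-3.61), and with the mixed barcodes at 109 and 9833 CPM (-6.43). Ighm stood at 1659 and 3785 CPM (-1.19). Of 22 B lineage factors 3 were higher and 7 lower, with a median of -0.13. With the mixed barcodes 6 were higher and 6 lower. Irf4, Spib and Bach2 stand in both that list and the late pre-B list, so these counts are not separate.

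By rank and with all barcodes, the highest with Dntt were the transporter Slc5a9 (3.53), Arpp21 (3.38), the scaffold gene Dlg2 (3.24), Mmrn1 (2.82), Heyl (2.78), Tmem91 (2.73), Fcrl6 (2.70), Vpreb2 (2.55), the death ligand Tnfsf10 (2.47) and the thromboxane receptor Tbxa2r (2.45). Of the 10 lowest, Jchain, Prtn3, Ctsg, Elane, Mpo, Ly6c2 and Mt1 lost most or all of their difference without the mixed barcodes, and their ratios then ranged from -1.09 for Mt1 to 0.38 for Ly6c2. Myl4 (15.1 against 426 CPM, -4.42), Ikzf3 (-3.80) and the Fc receptor-like gene Fcrla (28.1 against 334 CPM, -3.36) kept theirs, at -4.72, -4.18 and -3.70. Without the mixed barcodes Ctsg, at 3.38 against 12.8 CPM (-1.08), and Mt1 were still past 2-fold, and the other 5 of the 7 were not.

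In single cells, many Dntt and many κ transcripts were not seen together. Of 290 SCD members 119 held at least 3 Dntt UMIs and 94 at least 10 Igkc UMIs, and no cell held both, which allows a share of up to 1.26%. The 119 cells with Dntt held 0 to 8 Igkc UMIs with a median of 0, and 44 of them (37.0%) held at least 1. With any Dntt UMI counted, 4 members held at least 10 Igkc UMIs. In contrast, the 137 cells without any Dntt UMI and without mixed content held 0 to 60 with a median of 12. Free κ transcripts are a background here: Igkc was detected in 9.29% of neutrophils after thinning, against 53.5% of members. The 6 WT members with at least 3 Dntt UMIs held 0 to 2 Igkc UMIs, and the 12 without Dntt and without mixed content held 1 to 56 with a median of 9, so in both libraries the median was 0 with Dntt and 9 or more without it.

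Other pairs of transcripts overlapped more. Vpreb1 and Igll1 were both detected in 206 of 290 SCD members, 1 of them alone in 15 and neither in the 69 that entered on Vpreb3. Rag1 or Rag2 was detected in 203 (70%) and both in 76. The λ constant genes (Iglc1, Iglc2 and Iglc3) reached 10 UMIs in 9 members, and 5 of these also held 10 of Igkc.

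Members without a UMI of Vpreb1 or Igll1 in 2000 (82 cells) were set against the other 206. Of 3601 expressed genes 75 (2.08%) were at least 2-fold higher without these 2 transcripts and 111 (3.08%) lower; 43 and 82 passed also without mixed barcodes. Without mixed barcodes, 6 of 8 late pre-B genes were higher and none lower in the cells that lacked them. Il2ra was among the 6 (77.6 against 6.64 CPM, log2 2.83). With all barcodes 3 of 8 were higher and none lower. Ly6d, outside that list, stood at 649 against 80.2 CPM without mixed barcodes (2.94). Igkc stood at 2681 and 420 CPM (2.66). Erg was lower at 2.04 against 137 CPM (-4.33) and Lef1 at 110 against 546 CPM (-2.26), whereas Rag1 differed by less than 2-fold (-0.65). The median over Rag1, Rag2 and Dntt was also -0.65, but -1.09 with all barcodes and -1.06 with cells weighted equally, both past 2-fold.

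Detection of Dntt, of the surrogate light chain (SL+, a UMI of Vpreb1 or Igll1 in 2000) and of division cut the SCD members into 6 ranges, described here without mixed barcodes. They held 32 dividing and 69 non-dividing cells with Dntt, 45 and 37 cells with SL+ and no Dntt, and 31 and 41 cells with neither. Here no Dntt and neither mean no UMI in 2000. Without thinning, 43.5% of the 108 dividing and 55.1% of the 147 non-dividing cells held Dntt. Some cells of the ranges without Dntt thus do hold it. Dntt, Vpreb1 and Igll1 set the ranges and are no finding in them. Median depths were 14522, 13205 and 9802 UMIs in the 3 dividing ranges and 4486, 3414 and 3180 in the 3 non-dividing ones.

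Rag1 was high in every non-dividing range, with 650 CPM with Dntt (567 to 743), 515 CPM in SL+ cells without Dntt (404 to 646) and 321 CPM with neither (232 to 432). In the dividing ranges it stood at 90.3 (65.9 to 121), 14.8 (7.38 to 26.5) and 34.9 CPM (18.1 to 61.0). No dividing level reached the interval of any non-dividing one. The interval of the dividing Dntt range lay above that of the 2 other dividing ranges, which overlapped each other. Rag2 followed at 192, 104 and 74.6 CPM in non-dividing and 62.2, 24.2 and 43.7 CPM in dividing cells, with wide intervals.

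Igkc stood in the reverse order, from 159 CPM (119 to 208) with Dntt through 1586 (1387 to 1806) to 6206 CPM (5791 to 6642) with neither in non-dividing cells, and from 58.2 through 566 to 1302 CPM in dividing cells. It was detected in 97.6% of the non-dividing and 90.3% of the dividing cells with neither Dntt nor surrogate light chain, against 24.6% and 12.5% of those with Dntt. Ighm stood at 2019, 4654 and 7310 CPM in the same non-dividing order and at 1425, 2782 and 4150 CPM in the dividing one. The summed λ constant genes reached 1052 CPM in non-dividing cells with neither and at most 104 CPM in the other ranges.

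Of the 11 late pre-B genes 10 held at least 20 UMIs over the 6 ranges, and 9 of these were highest in the non-dividing cells with neither, 6 of them (Il2ra, Cd2, Igkc, Spib, Bach2 and Cecr2) with an interval above those of the other ranges. Over all 8295 genes with as many UMIs, 22.1% were highest in that range and 0.747% had such an interval. Ptpn6, a phosphatase that restrains receptor signalling, was highest in dividing SL+ cells. Il2ra stood at 209 CPM in the non-dividing cells with neither (139 to 302), against 41.7 CPM in non-dividing SL+ cells without Dntt and 0 to 14.6 CPM in the other ranges. Cd2, an adhesion gene of small pre-B cells, stood at 172 CPM (109 to 257) and at most 17.5 CPM in the others. Spib stood at 865 CPM (715 to 1038) in the same cells. Outside that list, Ly6d stood at 1634 CPM (1424 to 1865), Btg1 at 2051 CPM (1816 to 2309) and Klf2, a quiescence and homing factor, at 418 CPM (316 to 542). For Ly6d, Btg1 and Spib these intervals lay above those of the other 5 ranges, and for Klf2 that of non-dividing SL+ cells, at 230 CPM (158 to 322), overlapped.

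Lef1 and Erg stood in the opposite order. Lef1 stood at 1109 CPM (998 to 1228) in non-dividing cells with Dntt, 730 CPM in SL+ cells and 82.0 CPM with neither, and Erg at 303, 167 and 7.46 CPM. Vpreb2, whose partner gene helped to set the ranges, stood in the same order, with 1276, 682 and 0 CPM. Ebf1, in contrast, varied little between the non-dividing ranges, with 6304, 6615 and 5460 CPM. Ccnd3 stood at 859 to 914 CPM in the dividing ranges and 330 to 536 CPM in the non-dividing ones. The summed neutrophil list stood at 3188 to 3632 CPM in dividing and 5378 to 6795 CPM in non-dividing ranges, and its part in these orders was not tested.

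**Figure D4:**
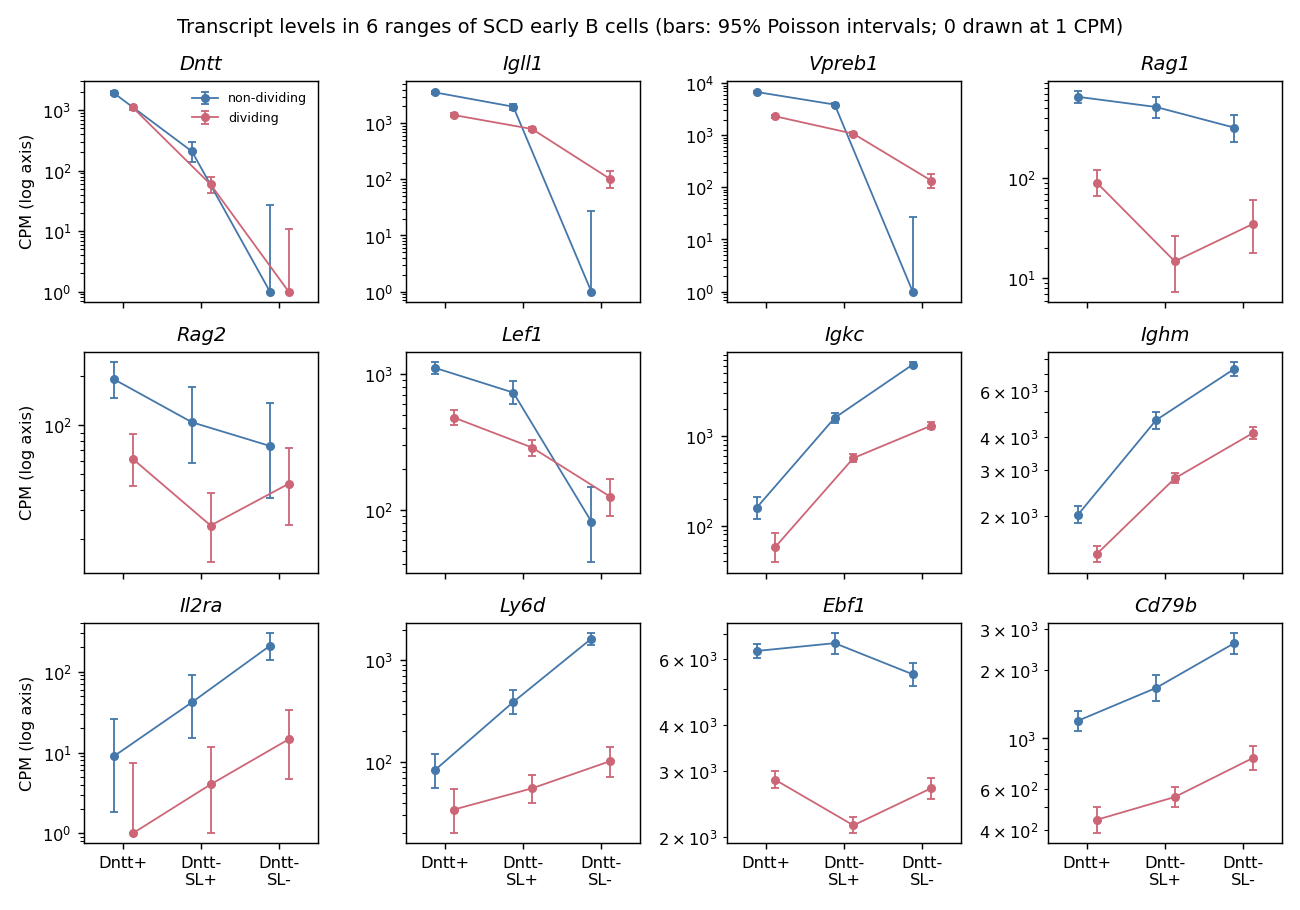
CPM (log axes) of 12 genes in 6 ranges of SCD early B cells without mixed barcodes: with Dntt (Dntt+), without Dntt but with Vpreb1 or Igll1 (Dntt- SL+), and with neither (Dntt- SL-), non-dividing in blue and dividing in red; bars are 95% Poisson intervals, 0 is drawn at 1 CPM, and lines only join the points. Dntt, Igll1 and Vpreb1 set the ranges; Rag1 lies at 321 to 650 CPM in the non-dividing ranges and 14.8 to 90.3 CPM in the dividing ones, and Igkc at 159, 1586 and 6206 CPM from left to right in the non-dividing cells.

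Transcripts of a γ heavy chain constant gene were found in a minority of members. Ighg2b, the constant gene of IgG2b, was detected in 66 of 290 SCD members with up to 24 UMIs, and stood at 285 and 71.9 CPM in dividing and non-dividing cells with Dntt and at 129 and 473 CPM in dividing and non-dividing SL+ cells without Dntt, but had no UMI in either range with neither Dntt nor surrogate light chain. The neutrophil gate, as background, held 0.652 CPM in dividing and 0.683 CPM in non-dividing cells. In the WT library 3 of 6 dividing and 5 of 14 non-dividing members held it. A 3′ count does not show whether a switched, rearranged or germline transcript was read.

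Counts assigned to the α-globin gene Hba-a1 were higher in dividing cells. Hba-a1 stood at 1250 CPM in dividing and 204 CPM in non-dividing SCD members, and at 1286 and 160 CPM without mixed barcodes. All 118 dividing cells held it, with 1 to 114 UMIs and a median of 15, and 61 of 152 non-dividing cells did, with 0 to 16. After thinning to 2000 UMIs and without mixed barcodes, 84.3% of dividing and 25.9% of non-dividing SCD members held it, against 12.8% and 11.9% of the neutrophil gate as background. Without thinning, the 6 dividing WT members held 2 to 22 Hba-a1 UMIs and the 14 non-dividing ones 0 or 1. These unthinned ranges did not overlap in WT, whereas in SCD they did. The dividing WT members were deeper, with a median of 16188 against 4205 UMIs. After thinning, 4 of 6 dividing (66.7%, 22.3 to 95.7%) and 1 of 14 non-dividing WT members (7.14%, 0.181 to 33.9%) held Hba-a1, with overlapping intervals.

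The other gates and other globin genes give the setting of these values. Hba-a1 was higher in dividing than in non-dividing cells also in the pDC gate (SCD 581 against 119 CPM, WT 585 against 10.7) and the progenitor gate (SCD 1271 against 342, WT 828 against 130). Of the 517 UMIs in non-dividing SCD pDCs 1 barcode held 230, and of the 1054 in dividing SCD pDCs 1 held 220. The WT value of dividing pDCs rests on 14 cells, 1 of which held 172 of the 317 UMIs, and 3 of the 14 held a UMI after thinning. Single barcodes also weigh on the levels of the neutrophil gate. In non-dividing WT cells (344 CPM, against 21.0 in dividing ones) 1 barcode held 1848 of 4562 UMIs. In dividing SCD cells (313 against 108 CPM) 1 held 1017 of 5270, and in non-dividing SCD cells 1 held 1540 of 5079. By the share of thinned cells with a UMI, dividing and non-dividing neutrophils stood at 6.06% (1.68 to 14.8%) and 3.85% (3.20 to 4.59%) in WT, with overlapping intervals, as in SCD. Hbb-bs, a β-globin gene, stood at 12.9 and 6.99 CPM in dividing and non-dividing SCD members. Both animals are labelled as homozygous for an Hba null allele; which transcript the counts assigned to Hba-a1 come from cannot be told from a count table.

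**Figure D5:**
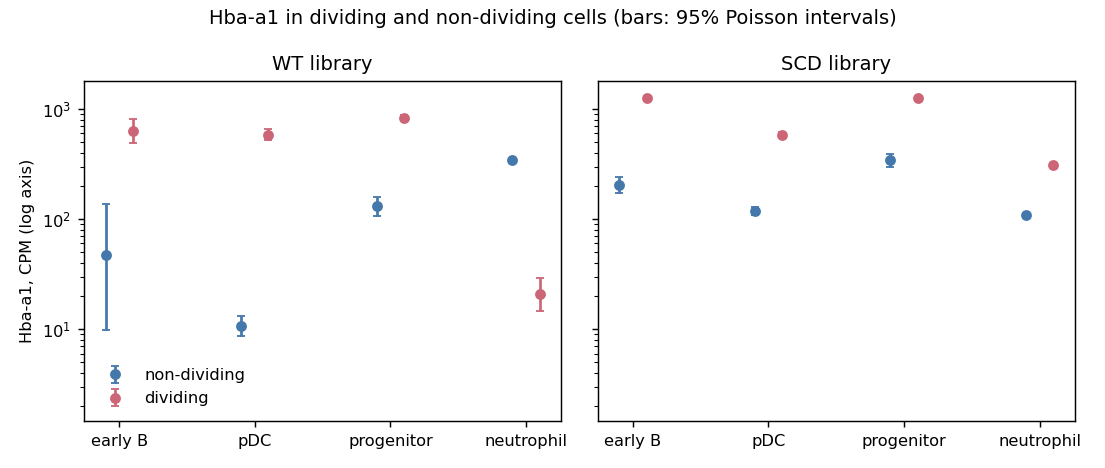
Hba-a1 in CPM (log axis) in dividing (red) and non-dividing (blue) cells of the early B cells, pDC gate, progenitor gate and neutrophil gate of the WT (left) and SCD (right) library, all barcodes included; bars are 95% Poisson intervals. Early B cells stand at 633 against 47.3 CPM in WT and 1250 against 204 CPM in SCD. The intervals cover counting error only, and single barcodes hold many of the UMIs behind the neutrophil, the SCD pDC and the WT dividing pDC points.

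The WT members are few, and their levels are set beside those of SCD without mixed barcodes (20 and 274 cells). The 2 mixed WT members held 0 Vpreb1 and Igll1 UMIs, 7 Vpreb3 UMIs each and no Pax5, with 4 and 7 Ebf1 UMIs, although they were deeper (median 33848.5 UMIs, against 4954.5 in the other 20). Cd79a and Cd79b had medians of 17.5 and 16 UMIs in these 2 and of 13 and 9 in the others. Vpreb3, whose level the rule partly fixes, stood at 3644 CPM in SCD and 3582 CPM in WT. The summed cycle genes stood at 11204 and 11156 CPM. Ebf1 stood at 3567 and 4220 CPM (-0.24). Rag1 was lower in SCD at 192 against 362 CPM (-0.90, -1.31 to -0.50), as was Rag2 at 71.3 against 215 CPM (-1.53, -2.12 to -1.02).

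Vpreb2 was higher in SCD at 406 against 159 CPM (1.32, 0.79 to 1.97), while Ly6d (-1.07) and Btg1 (-1.06) were lower. These differences compare 2 animals and, in WT, 20 cells; each rests on which cells happened to be among the 20. The summed neutrophil list stood at 4082 CPM in SCD and 883 CPM in WT members (2.20, 1.97 to 2.46), beside a library in which 7410 of 12549 cells fell in the neutrophil gate against 3979 of 10262 in WT; its part in the differences was not tested. Counts assigned to Hba-a1 stood at 952 and 405 CPM (1.22).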

How the data were processed

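Spleen suspensions of 1 WT and 1 SCD mouse were sequenced as 1 library each. The authors deposited raw UMI counts per gene and barcode (Cell Ranger 4.0.0, GRCm38.p6, per the submitters' processing notes) for droplets called as cells by Cell Ranger; no barcode held under 500 UMIs. Cells with at least 500 genes and under 15% mitochondrial UMIs were kept, with no upper limit of genes. The members and gene lists (23 lists, 267 genes) were chosen with earlier results of these data known. Some genes stand in more than 1 list. UMIs were summed over the cells of each range and given as CPM. Shares of cells with a UMI, and the dividing ranges, used cells thinned to 2000 UMIs. No test was possible with 1 library per group, so genes were counted as different at 2-fold. Named genes were those of the lists and, per comparison, the 10 highest and 10 lowest ratios, leaving out immunoglobulin, globin, mitochondrial, ribosomal and sex-linked genes and those that set the sides. Mixed barcodes were members with at least 10 Jchain UMIs or at least 20 UMIs of a set of azurophil granule, monocyte, macrophage, dendritic or erythroid genes. Doublets were called with Scrublet (scanpy 1.11.5) and kept. Intervals came from scipy 1.17.1, tables from pandas 2.3.3 with numpy 2.4.6 (under Python 3.11.15), and the scripts were tested on simulated counts. Promoters and motifs came from RefSeq tables of the same build, in which 9 of 9 genes searched were found.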

Additional observations from a re-analysis of the deposited data

Results flagged for a closer look

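Of the SCD cells past the limits, 0.327% (0.235 to 0.443%) held at least 5 UMIs of Vpreb1, Igll1 and Vpreb3 together but were left out by the other limits, against 0.00974% in WT. This signal lies outside the cells compared in the report: 40 of the 41 SCD cells had up to 29.9% of UMIs from S100a8 and S100a9, 7 of them between 1 and 2%, and 3 had more than 1 Siglech UMI. Their median was 9810 UMIs.

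The ratios of 2 genes pointed in opposite directions in the 2 libraries, without mixed barcodes; the difference was not tested. Ighm had a log2 ratio of dividing over non-dividing cells of 0.25 in WT (457 and 245 UMIs) and -0.52 in SCD. Btg1 had a log2 ratio of Dntt-detected over other cells of 0.64 in WT (59 and 74 UMIs) and -1.48 in SCD. The WT values rest on 6 and 14, and on 7 and 13, cells.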

How the results depend on the processing

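No paired analysis was possible because WT and SCD were 1 library each, and for the same reason no library could be left out. Of the named genes past 2-fold, 4 changed direction under an alternative; Cd79b, level with Dntt at 0.01, also changed sign. With Dntt against without, the log2 ratios of Prtn3, Elane and Ly6c2 became 0.30, 0.20 and 0.38 without mixed barcodes and 0.21, 0.23 and 0.39 with at most 5000 genes per cell, and that of Jchain against the pDC gate became -0.15 without mixed barcodes. With cells under 1% S100a8 and S100a9 as the denominator, the shares were 6.18% in SCD and 0.392% in WT. The dividing share was 47.2% with a limit of 5 cycle UMIs and 31.9% with 20, and 39.7% without mixed barcodes. With a pseudocount of 20 CPM, 371 genes were at least 2-fold lower in dividing cells and 62 lower with Dntt. With no minimum of CPM, 861 genes were higher in dividing cells, 357 higher and 236 lower with Dntt, and 808 higher and 1157 lower than in the pDC gate. In non-dividing members alone, 312 were higher and 246 lower with Dntt, and of 35 named genes past 2-fold 6 no longer were (Rag1, Bst1, Kit, Elane, Jchain and Mt1). The other settings moved no count by over 1.5 times, 22 of 24 values for the member shares, 22 of 24 counts for division and 21 of 26 for Dntt. Of single genes, 443 of 528 values stayed within their interval for division, 374 of 507 for Dntt and 110 of 168 for the pDC gate. The comparisons with progenitors and by surrogate light chain were repeated only without mixed barcodes and with cells weighted equally. Removing mixed barcodes or weighting cells equally were alternatives chosen after seeing the data. Depth limits the WT cells most: 20 members with 163052 UMIs.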
